A study of Mus musculus with 3 samples.

Results

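The genes described here are 8 transcripts known from atrial muscle, from the fetal heart and from the stressed heart wall: *Nppa*, *Nppb*, *Myl7*, *Myl4*, *Sln*, *Myh7*, *Acta1* and *Ankrd1*. They were chosen by symbol, and all 8 are among the 17583 genes of the deposited table. The table holds ribosome-associated RNA of the hearts of 3 EC-RiboTag mice with the genotype Cdh5-CreERT2;Rpl22tm1.1Psam. In this line an inducible Cre recombinase, driven by the promoter of the endothelial cadherin gene and switched on with tamoxifen, gives the ribosomal protein RPL22 a hemagglutinin tag, and tagged ribosomes are pulled down with antibody beads. The labels place the hearts 7 days after coronary ligation, whereas the RiboTag methods mention no infarction. Each library is titled hrtRz, and the study writes RZ for the remote zone of infarcted hearts, also in a separate PCR experiment on EC-RiboTag mice 7 days after infarction. The labels give the tissue only as heart, so that these libraries come from the remote zone, and whether atria were included, is not stated for them. All 3 libraries belong to a single condition, so no difference between conditions could be tested, and no library of the input tissue was analysed here.

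As background, the adult mouse ventricle and atrium use different members of the same protein families. Atrial cardiomyocytes use the myosin light chains encoded by *Myl7* (regulatory) and *Myl4* (essential) and restrain the calcium pump with sarcolipin (*Sln*), where the ventricle uses *Myl2*, *Myl3* and phospholamban (*Pln*). When the ventricular wall is overloaded or injured, its cardiomyocytes return to part of the fetal program: they release the natriuretic peptides ANP (*Nppa*) and BNP (*Nppb*), take up the slow myosin heavy chain *Myh7* beside the adult *Myh6* and the skeletal actin *Acta1* beside the cardiac actin *Actc1*, and raise *Ankrd1*, a nuclear and sarcomeric ankyrin repeat protein. None of the 8 genes is a usual marker of endothelial cells.

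The libraries carried the genes of several cell types. All 12 endothelial marker genes were listed, with means between 970.7 and 4919 normalized counts, and so were all 15 adult cardiomyocyte genes, with means between 454 and 8437. The 8 fibroblast markers had means between 30 and 799.7, 5 of 7 leukocyte markers were listed, and 3 of 7 markers of fast skeletal muscle, of which *Mylpf* was the highest with 72.3. The libraries hold 7149102 to 7268785 normalized counts, in which 1 read is worth between 0.961 and 1.06. With RNA from many cells in each library, fewer cells of a type and less RNA per cell cannot be told apart. The study compared pull-down with input of EC-RiboTag hearts by PCR for *Cdh5*, *Pecam1*, *Myh6*, *Ptprc* and *Pdgfra*. Its text gives no ratios, and none of the 8 genes was among them. The cells from which the RNA of the 8 genes came were not tested here.

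Members that shared their course over the mice, and a pair that shares sequence, are shown as sequence here. *Nppa*, *Nppb* and *Ankrd1* had the same order of the mice, as described further on, so the 250 bases before their RefSeq start sites are given, read in the direction of transcription in GRCm38.p6. Those of *Nppa* are chr4:148000472-148000721 on the plus strand, those of *Nppb* chr4:147985650-147985899 on the plus strand, and those of *Ankrd1* chr19:36119845-36120094 on the minus strand. Capitals mark the letters TATAAA of the TATA box, GATAA bound by GATA factors, CATTCC bound by TEAD factors and CAAGTG bound by NKX2-5, on either strand.
Nppa: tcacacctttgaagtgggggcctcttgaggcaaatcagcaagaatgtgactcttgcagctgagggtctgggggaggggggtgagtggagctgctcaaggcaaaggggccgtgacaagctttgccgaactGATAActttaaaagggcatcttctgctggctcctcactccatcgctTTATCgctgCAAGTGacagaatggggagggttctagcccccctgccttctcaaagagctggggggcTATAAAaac
Nppb: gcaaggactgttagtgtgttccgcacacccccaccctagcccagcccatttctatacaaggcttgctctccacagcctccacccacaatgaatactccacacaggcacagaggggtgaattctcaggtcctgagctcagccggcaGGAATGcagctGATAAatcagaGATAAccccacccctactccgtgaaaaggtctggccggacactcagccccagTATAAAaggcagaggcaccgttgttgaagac
Ankrd1: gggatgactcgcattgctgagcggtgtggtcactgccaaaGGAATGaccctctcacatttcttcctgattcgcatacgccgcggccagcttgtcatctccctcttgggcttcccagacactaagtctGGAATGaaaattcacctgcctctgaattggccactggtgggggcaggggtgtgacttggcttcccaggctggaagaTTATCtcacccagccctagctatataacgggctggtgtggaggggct
GATAA occurred 2 times before *Nppa*, 2 times before *Nppb* and 1 time before *Ankrd1*, and in 22.5% of the 32536 promoters of this length. CATTCC occurred 1 time before *Nppb*, 2 times before *Ankrd1* and not before *Nppa*, and in 12.6% of promoters. TATAAA was present before *Nppa* and *Nppb* (12.3% of promoters), and CAAGTG before *Nppa* only among these 3 (11.5%). The same motifs also occurred before members with another order of the mice. *Myl7*, which was lowest in mouse 2, held 1 match each to the motifs of GATA factors, TEAD factors and NKX2-5. *Acta1* held 1 match to the motif of TEAD factors and 1 TATA box. *Myh7* held 1 match to the motif of TEAD factors, at 1 of its start sites. Of the other members, *Acta1* and *Myl7* each held 1 CArG box, the site of serum response factor, which 1.48% of promoters hold. No motif of MEF2 was found before a member, against 0.513% of promoters. The searched motifs did not overlap each other in the 3 printed sequences, and such matches describe letters, not binding. The RefSeq table held 7 of the 8 members, and *Sln* was not among them.

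Both natriuretic peptide genes were present in every mouse, and *Nppa* exceeded *Nppb*. *Nppa* (ENSMUSG00000041616, GRCm39 chromosome 4, 148085179 to 148086536, plus strand) had 329, 415 and 318 normalized counts in mice 1, 2 and 3, a mean of 354 ± 53.1 (SD, n = 3), and ranked 7212 among all genes undivided by length, 1397 per base of canonical transcript and 321 per base of all annotated exons. *Nppb* (ENSMUSG00000029019, 148070245 to 148071662, plus strand) had 143, 163 and 123, a mean of 143 ± 20 (SD, n = 3), and ranked 10191, 4588 and 3199 on these scales. In both genes mouse 2 was the highest and mouse 3 the lowest, and every value of *Nppa* lay above every value of *Nppb*. Both are short transcripts of 3 exons, 953 and 781 bases long in the Ensembl canonical form. Per base of this form, *Nppa* had 0.371 ± 0.056 and *Nppb* 0.183 ± 0.026 normalized counts (SD, n = 3), so *Nppa* was 2.02-fold higher on this scale. The log2 ratio per base was 0.91, 1.06 and 1.08 in the 3 mice, a mean of 1.02 ± 0.09 (SD, n = 3; exact sign-flip permutation test, two-sided p = 0.25, adjusted p = 0.333 over 8 pairs). The mean log2 ratio was 1.46 when divided by all annotated exons and 1.30 undivided. With 3 mice the sign-flip test cannot give a p below 0.25, and no ratio reported here could reach 0.05.

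The 2 genes lie next to each other on chromosome 4, 13517 bases apart, with *Nppb* on the lower side. The next listed gene beyond *Nppa* is the chloride transporter gene *Clcn6*, 2180 bases away on the other strand, with 511, 415 and 490 normalized counts, and here mouse 2 was the lowest instead of the highest. *Nppa* is overlapped on the other strand by the noncoding RNA Gm13054, which shares 51.6% of the read-length windows of *Nppa* but was counted on its own strand with 4, 4 and 5. Neither peptide gene has a 72-base window with an exact copy outside its own locus.

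Receptors and processing enzymes of the peptides were present in every mouse, and their order against the peptides depended on the length used. By normalized counts per base of canonical transcript, *Npr3*, the clearance receptor that removes the peptides and a gene typical of endocardium, had 0.536 ± 0.223 and *Furin*, a convertase of proBNP, 0.379 ± 0.016 (SD, n = 3 each), the latter within the spread of *Nppa*. The cyclase receptors *Npr2* and *Npr1* had 0.270 ± 0.031 and 0.259 ± 0.013, between *Nppa* and *Nppb*. Per base of all annotated exons the values were 0.127 for *Npr3*, 0.167 for *Furin*, 0.114 for *Npr2* and 0.217 for *Npr1*, all below *Nppa* with 0.347, and *Npr2* then also lay below *Nppb* with 0.126. *Corin*, the cardiomyocyte protease that activates ANP, had 336, 365 and 344 normalized counts, and 0.0705 per base of canonical transcript. The third peptide gene *Nppc* was low with 13, 8 and 14, and so was *Mme* (neprilysin) with 19, 21 and 16. The phosphodiesterase gene *Pde2a* was not listed, and the table lists no gene whose highest value is below 4. Of the 12 listed genes of this pathway, with *Nppa* and *Nppb* among them, 8 had a mean of at least 200, and 1 of these, *Npr3*, had a coefficient of variation over 20%, against 8.00% of all 9358 genes at this level.

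**Figure D1:**
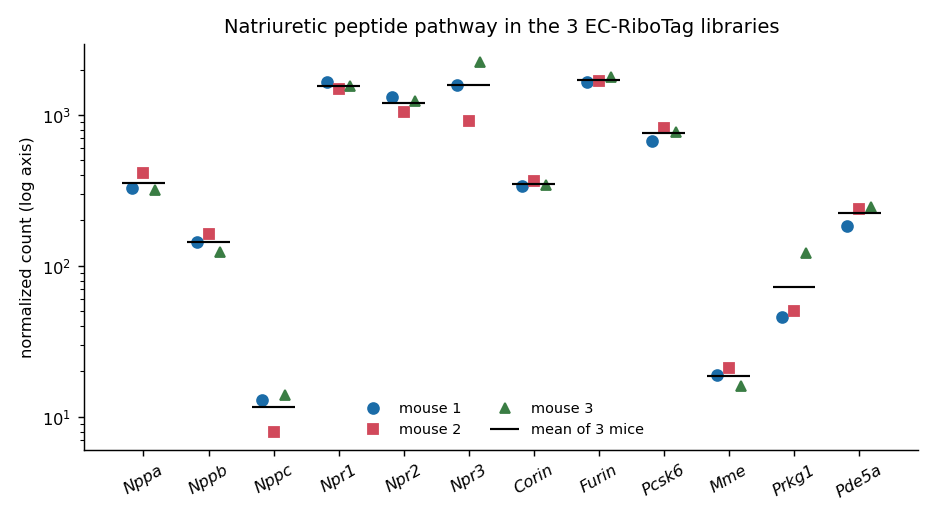
Normalized counts (log axis) of the 12 listed genes of the natriuretic peptide pathway, with a symbol for each mouse and a bar for the mean of 3 mice. *Npr3* spreads from 914 in mouse 2 to 2228 in mouse 3, while *Nppa* and *Nppb* are highest in mouse 2; counts are not divided by transcript length.

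The atrial genes *Myl7* and *Sln* were nearly absent from mouse 2 and present in the other mice. *Myl7* (ENSMUSG00000020469, chromosome 11, 5846637 to 5848782, minus strand) had 138, 14 and 105 normalized counts in mice 1, 2 and 3, a mean of 85.7 ± 64.2 (SD, n = 3). *Sln* (ENSMUSG00000042045, chromosome 9, 53757448 to 53761844, plus strand) had 27, 1 and 24, a mean of 17.3 ± 14.2 (SD, n = 3). The counting intervals of mouse 2 did not meet those of the other mice in either gene. They ran from 7.34 to 23.6 for *Myl7*, against 86.0 to 126 in mouse 3, and from 0.027 to 5.9 for *Sln*, which rests on about 1 read, against 15.5 to 35.5 in mouse 3 (95% exact Poisson intervals, which cover counting error only). Mouse 1 had the highest value of both genes.

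*Myl4*, the essential light chain of the atrium, was also lowest in mouse 2, by less. This gene (ENSMUSG00000061086, chromosome 11, 104441489 to 104486579, plus strand) had 179, 116 and 219 normalized counts, a mean of 171 ± 51.9 (SD, n = 3), with mouse 3 the highest. The value of mouse 3 was 1.89 times that of mouse 2, where the same comparison of highest and lowest gave 9.86 for *Myl7*. All annotated exons of *Myl4* cover 6380 bases, against 943 in its canonical transcript, so its level per base depends on the form chosen. No 72-base window of *Myl7*, *Myl4* or *Sln* has an exact copy in another gene or elsewhere in the genome.

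**Figure D2:**
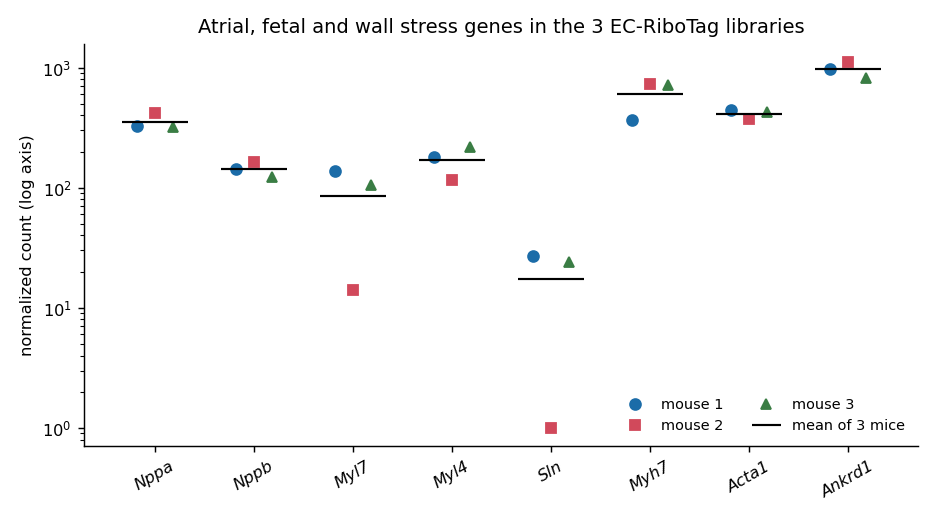
Normalized counts (log axis) of the 8 genes, with a symbol for each mouse and a bar for the mean of 3 mice. The values of mouse 2 for *Myl7* (14) and *Sln* (1) lie far under those of the other mice, while mouse 2 is the highest for *Nppa*, *Nppb*, *Myh7* and *Ankrd1*.

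Against the ventricular partner of each protein, the atrial form was the minor one in every mouse. All ratios that follow are log2 ratios of normalized counts per base of canonical transcript. *Myl7* to *Myl2* gave -1.94, -5.14 and -2.06 in mice 1, 2 and 3 (mean -3.04 ± 1.81, SD, n = 3), and *Myl4* to *Myl3* gave -1.90, -2.38 and -1.37 (mean -1.88 ± 0.51), or a mean of -2.95 when divided by all annotated exons. *Sln* to *Pln* gave -4.06, -8.04 and -4.01 (mean -5.37 ± 2.31), of which the value of mouse 2 rests on about 1 read of *Sln*. Each of these 3 ratios was negative in 3 of 3 mice (exact sign-flip permutation test, two-sided p = 0.25, adjusted p = 0.333). The ventricular partners varied less, with 729, 701 and 605 for *Myl2*, 670, 605 and 566 for *Myl3* and 1433, 1230 and 1229 for *Pln*. Most of the difference between mice in these ratios thus came from the atrial genes. Per base of canonical transcript *Myl2* had 0.819 and *Myl3* 0.651, ranks 45 and 193, and *Pln* had 0.316. The removal of duplicates limits short abundant transcripts most. How far it held down these partners, and so the size of the ratios and their spread, was not tested. *Myl7* and *Myl4* had no fixed order between themselves, with log2 ratios of 0.27, -2.36 and -0.41 (two-sided exact p = 0.5, adjusted p = 0.5).

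Other genes with a known atrial bias and enough counts to compare did not share the low value of mouse 2 at this size. Of 8 genes with such a bias 7 were listed, and 3 of the 7 were lowest in mouse 2. The kinase gene *Sbk2* was among these 3, with 9, 4 and 9 normalized counts, too few to compare. The potassium channel genes *Kcnj3* (129, 102 and 100) and *Kcnj5* (167, 147 and 122) were highest in mouse 1. *Dkk3*, a secreted Wnt modulator, had 42, 103 and 172, with mouse 1 the lowest. The 3 genes with high means, *Kcna5* (1485 ± 117), *Pam* (1784 ± 60.5) and *Gja5* (878.3 ± 35.2), varied little. *Kcna5* and *Pam* were lowest in mouse 2, with 1353 and 1729, and the cells from which their RNA came were not tested. *Gja5* is also a gene of arterial endothelium. *Bmp10*, a growth factor of the right atrium, was not listed. Beside the atrial genes, the summed level of 5 endocardial markers was 3795, 2955 and 5145 in mice 1, 2 and 3, with *Npr3* (1589, 914 and 2228), *Cytl1* (555, 424 and 614) and *Tmem108* (328, 209 and 589) lowest in mouse 2. *Nfatc1* (1305, 1386 and 1658) and *Hapln1* (18, 22 and 56) were lowest in mouse 1, and all 5 were present in every mouse. The part of endocardial or atrial tissue in the low *Myl7* and *Sln* of mouse 2 was not tested.

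*Myh7*, the slow myosin heavy chain, was lowest in mouse 1 and nearly equal in the others. It (ENSMUSG00000053093, chromosome 14, 55208141 to 55232083, minus strand) had 369, 729 and 716 normalized counts in mice 1, 2 and 3, a mean of 605 ± 204 (SD, n = 3), and ranked 4505. The adult form *Myh6*, which lies 3757 bases away on the same strand, varied little with 3428, 3701 and 3643. Per base of canonical transcript the log2 ratio of *Myh7* to *Myh6* was -3.19, -2.32 and -2.32, a mean of -2.61 ± 0.50 (SD, n = 3), so *Myh6* was 6.10-fold higher (exact sign-flip permutation test, two-sided p = 0.25, adjusted p = 0.333). The fetal form was thus the minor one in each mouse. *Myh6* had 0.575 per base against 0.0986 for *Myh7*, and how far duplicate removal held down the higher gene was not tested.

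The pair needs care because reads that map to several places were removed by the authors. The longest stretch that the canonical transcripts of *Myh7* and *Myh6* share without a mismatch has 245 bases, in the coding part of exons 32 and 33 of *Myh7* and 30 and 31 of *Myh6*. It is printed because a read from it cannot be assigned to either gene; capitals mark the leading 72 bases, the length of a read.
Myh7 and Myh6: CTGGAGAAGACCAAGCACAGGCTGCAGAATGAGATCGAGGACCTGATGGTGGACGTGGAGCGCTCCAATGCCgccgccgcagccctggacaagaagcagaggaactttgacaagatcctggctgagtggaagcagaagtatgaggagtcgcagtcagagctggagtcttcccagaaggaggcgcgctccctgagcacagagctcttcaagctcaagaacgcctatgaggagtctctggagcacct
In all, 973 of 6064 windows of *Myh7* (16.0%) and 972 of 6173 of *Myh6* (15.7%) have an exact copy outside their own locus, so the loss is of like size on both sides of the ratio. *Myh7* is also overlapped on the other strand by the noncoding RNAs *Mhrt* (123, 134 and 131) and Gm31251 (156, 188 and 152), which were counted by strand. *Mhrt* was lowest in mouse 1 too, but by far less than *Myh7*, and Gm31251 was lowest in mouse 3.

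*Acta1* was the steadiest of the 8 genes. This skeletal actin gene (ENSMUSG00000031972, chromosome 8, 124618508 to 124621490, minus strand) had 442, 372 and 425 normalized counts, a mean of 413 ± 36.5 (SD, n = 3), and its partner *Actc1* had 1046, 998 and 927. Undivided, *Actc1* was the higher gene, but its canonical transcript is longer, with 3645 against 1648 bases. Per base the log2 ratio of *Acta1* to *Actc1* was -0.10, -0.28 and 0.02, a mean of -0.12 ± 0.15 (SD, n = 3; exact sign-flip permutation test, two-sided p = 0.5, adjusted p = 0.5), so neither actin was higher in every mouse on this scale. Divided by all annotated exons the mean was -0.62, so the order of the actins rests on the transcript form. The transcripts share no stretch over 29 bases, and 0.571% of the windows of *Acta1* have a copy elsewhere. Of the fast skeletal muscle genes, which share a tissue with *Acta1*, *Myh1*, *Myh2*, *Myh4* and *Actn3* were not listed, *Tnnt3* had 3, 5 and 7, *Tnni2* had 1, 2 and 7, and *Mylpf* had 100, 48 and 69.

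**Figure D3:**
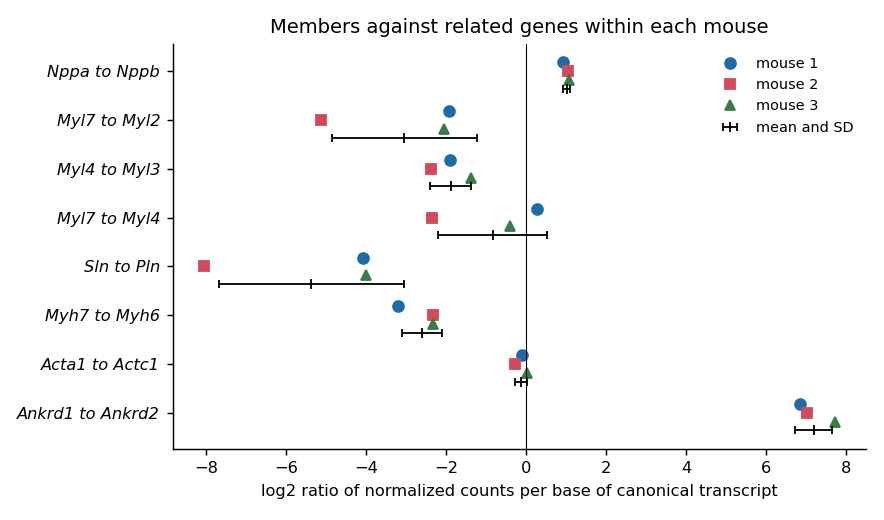
Log2 ratios of normalized counts per base of canonical transcript for 8 pairs of related genes, with a symbol for each mouse and, below it, the mean and SD of 3 mice. *Nppa* exceeds *Nppb* and the atrial light chains lie below their ventricular partners in every mouse, *Acta1* and *Actc1* straddle 0, and mouse 2 stands apart in the ratios with *Myl7* and *Sln*.

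*Ankrd1* had the highest level of the 8 genes by count and per base of canonical transcript. Per base of all annotated exons *Nppa* was higher, with 0.347 against 0.325. It (ENSMUSG00000024803, chromosome 19, 36089361 to 36097499, minus strand) had 980, 1108 and 819 normalized counts, a mean of 969 ± 145 (SD, n = 3), and ranked 2169. Its canonical transcript has 2027 bases, and per base it had 0.478 ± 0.071 (SD, n = 3) and ranked 650 of the 17475 genes with a length. Its relative *Ankrd2*, a stress gene of slow skeletal muscle, was near the lower end of the table with 5, 5 and 2, and *Ankrd23* had 44, 37 and 36. Per base of canonical transcript, the 8 genes came in the order *Ankrd1*, *Nppa*, *Acta1*, *Nppb*, *Myl4*, *Myl7*, *Myh7* and *Sln*. Neighbours in this order were apart in all mice only between *Nppa* and *Acta1*, between *Acta1* and *Nppb* and between *Myh7* and *Sln*; *Ankrd1* and *Nppa*, and the genes from *Nppb* to *Myh7*, overlapped their next neighbour. This order depends on the length used: per base of all annotated exons the means were 0.126 for *Nppb* and 0.111 for *Acta1*, and *Myh7* with 0.061 lay above *Myl7* with 0.034 and *Myl4* with 0.027.

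*Nppa*, *Nppb* and *Ankrd1* had the same order of the mice, with mouse 2 the highest and mouse 3 the lowest. On a log2 scale with 0.5 added, their values deviated from their own means by -0.10, 0.01 and 0.03 in mouse 1, by 0.24, 0.20 and 0.20 in mouse 2, and by -0.14, -0.21 and -0.23 in mouse 3. The distance between patterns is the square root of the summed squared differences, over 3 mice, of the log2 of each value (plus 0.5) over the gene's own mean. It was 0.03 for *Nppb* and *Ankrd1*, 0.13 for *Nppa* and *Nppb* and 0.15 for *Nppa* and *Ankrd1*. *Myl7* and *Sln* were 1.02 apart, and *Myl7* lay 2.94 from *Nppa* though both are atrial genes. The shifts of *Nppa*, *Nppb* and *Ankrd1* were small, since the highest value was 1.31, 1.33 and 1.35 times the lowest in that order. The 95% Poisson intervals of *Nppb* all overlapped, with 120 to 168, 138 to 191 and 103 to 146. Those of *Nppa* overlapped in mice 1 and 3 (295 to 366 and 285 to 354). Those of *Ankrd1* overlapped in mice 1 and 2 (920 to 1042 and 1041 to 1177). Mouse 2 of *Nppa* (375 to 459) and mouse 3 of *Ankrd1* (765 to 876) stood apart. This order was not particular to the 3 genes. It was also found in the endothelial markers *Pecam1* (2722, 2847 and 2668) and *Fabp4* (989, 1048 and 875) and in the mural marker *Rgs5* (542, 615 and 505). Mouse 2 was the highest in 4 of 12 endothelial and 2 of 8 mural markers. The share of all genes with this order was not counted.

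**Figure D4:**
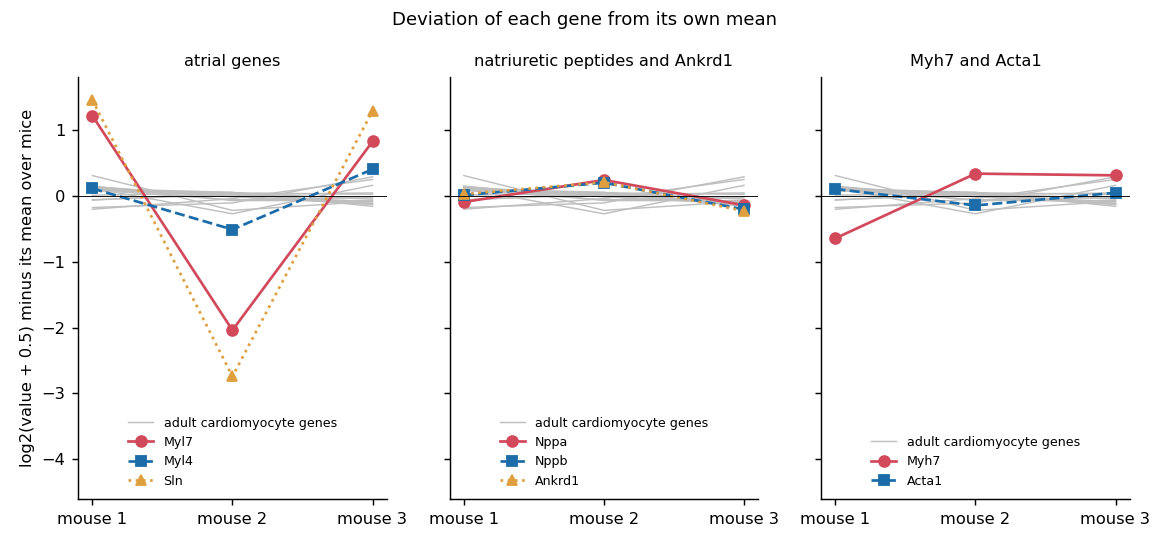
Log2(value + 0.5) of each gene minus its own mean, by mouse, in 3 panels, with 15 adult cardiomyocyte genes in grey; lines join the values of a gene and stand for no order of the mice. *Myl7* and *Sln* fall to -2.04 and -2.74 in mouse 2 and *Myh7* to -0.65 in mouse 1, beyond the grey lines, while *Nppa*, *Nppb* and *Ankrd1* run together.

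Set against the median of the adult cardiomyocyte genes, *Myl7* and *Sln* were still lowest in mouse 2 and *Myh7* in mouse 1. The shared order of *Nppa*, *Nppb* and *Ankrd1* was lost. The median log2 value of 15 adult cardiomyocyte genes was taken off each member within each mouse. *Myl7* then had -2.92, -6.10 and -3.14, *Sln* -5.25, -9.38 and -5.24, and *Myh7* -1.50, -0.45 and -0.37 in mice 1, 2 and 3. *Nppa* had -1.67, -1.26 and -1.54, with mouse 1 the lowest, whereas *Nppb* (-2.87, -2.61 and -2.91) and *Ankrd1* (-0.09, 0.15 and -0.18) were lowest in mouse 3. On counts undivided by length, *Ankrd1* lay level with the median of the list, at -0.04 ± 0.17. It was followed by *Myh7* at -0.77 ± 0.63, *Acta1* at -1.26 ± 0.15 and *Nppa* at -1.49 ± 0.21 (SD, n = 3 each). The 15 genes ran from 0.0785 (*Ttn*) to 0.819 (*Myl2*) per base of canonical transcript, and *Ankrd1* had 0.478. These places depend on transcript length. The part of duplicate removal, which limits short abundant transcripts most, was not tested. The SD between mice fell from 0.22 to 0.17 for *Ankrd1* and from 0.20 to 0.16 for *Nppb*, was 0.21 for *Nppa* both ways, and was larger after the subtraction for the other 5 members.

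Compared with all genes, *Myl7*, *Sln* and *Myh7* had a wide spread between mice. A coefficient of variation over 20% was found in 8.00% of the 9358 genes whose mean reached 200. Of the 4 members at this level, *Nppa*, *Myh7*, *Acta1* and *Ankrd1*, only *Myh7* passed it with 33.8%. Among the 11956 genes whose mean reached 50, 14.9% passed, and so did 3 of 7 members, with *Myl7* at 75.0% and *Myl4* at 30.3% beside *Myh7*. *Sln*, below both limits, had 82.1%, of which counting alone gives about 23.6%. A highest value at least 4 times the lowest, a rule set after the values had been seen, was met by *Myl7* alone of the 7 members and by 0.309% of the 11956 genes. Without mouse 2 the coefficients of *Myl7*, *Sln* and *Myl4* were 19.2%, 8.32% and 14.2%, and without mouse 1 that of *Myh7* was 1.27%. Without mouse 1 that of *Ankrd1* passed 20%, with 21.2% against 14.9% over all mice.

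**Figure D5:**
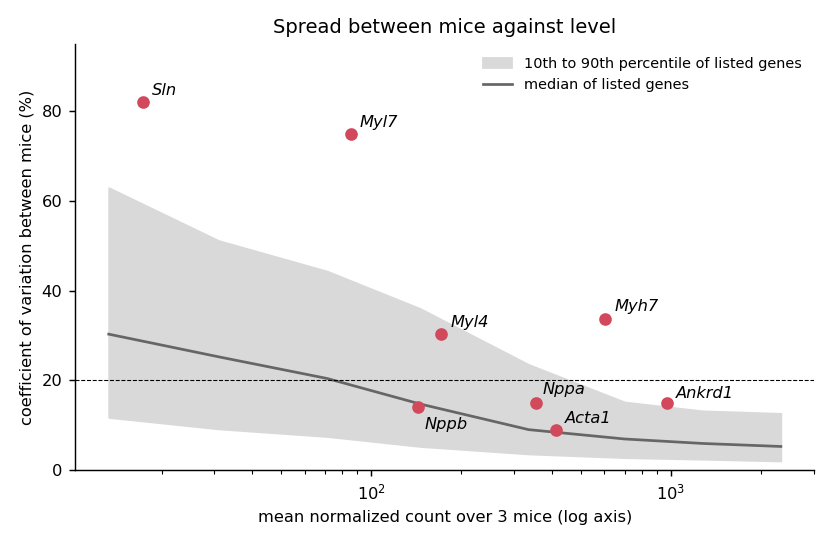
Coefficient of variation between mice (%) against the mean normalized count (log axis) for the 8 genes, with the median and the 10th to 90th percentile of all listed genes by level. *Sln*, *Myl7* and *Myh7* lie above the grey band, *Ankrd1* lies at its upper edge, and the dashed line marks 20%.

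Among other genes of the fetal and stress program, those with the widest spread at high level were lowest in mouse 1, with differing courses. All 16 were listed, 11 with a mean of at least 200, and 4 of these had a coefficient of variation over 20%, against 8.00% of all genes at this level. Of these 4, 3 encode large or repeat proteins that bind actin: *Xirp1* (360, 557 and 695), *Xirp2* (1195, 1807 and 1332) and filamin C, *Flnc* (548, 944 and 1011). With *Ccn2* (716, 765 and 1064), a matrix-associated growth regulator, all 4 were lowest in mouse 1, as *Myh7* was. In *Xirp2*, however, mouse 1 lay near mouse 3 and mouse 2 stood apart. In *Ccn2*, mouse 1 lay near mouse 2 and mouse 3 stood apart. The muscle LIM protein gene *Csrp3* (465, 453 and 431), the calcineurin regulator *Rcan1* (999, 1095 and 976) and *Clu* (832, 837 and 849) varied little. The myosin gene *Myh7b* (900, 1155 and 792) was highest in mouse 2 and lowest in mouse 3, and desmin, *Des* (1005, 798 and 816), was highest in mouse 1. In all, 7 of the 16 were lowest in mouse 1, 1 of them (*Tnni1*) in a tie, 3 in mouse 2 and 6 in mouse 3. The fetal troponin *Tnni1* was low with 4, 13 and 4. Mouse 1 was also the lowest of the mice in 6 of 8 fibroblast markers, in 6 of 8 mural markers and in 4 of 5 listed leukocyte markers, and tied with mouse 3 in the other, *C1qa* (142, 165 and 142). The summed fibroblast markers were 3047, 3970 and 4186 in mice 1, 2 and 3, the leukocyte markers 552, 764 and 743 and the mural markers 1372, 1917 and 2104. Their part in the low *Myh7* of mouse 1 was not tested. Mouse 1 also differed more from the other mice beyond these lists. Over 9358 genes, the SD of the log2 ratio was 0.293 between mice 1 and 2. It was 0.303 between mice 1 and 3, and 0.214 between mice 2 and 3. How many of all genes were lowest in mouse 1 was not counted, so low values there may not be particular to the listed genes.

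Of 18 transcription factors of heart muscle and heart development, 16 were listed. The factors of the motifs searched above were present, with *Gata4* at 290, 272 and 545, *Nkx2-5* at 141, 122 and 93, *Tead1* at 868, 939 and 1114, *Srf* at 1007, 1012 and 1057 and *Mef2a* at 1800, 1895 and 1905. Mouse 2 was the highest in 1 of the 16 listed factors, *Irx4* (110, 124 and 77). It was the highest in 2 of 15 adult cardiomyocyte genes and in 4 of 12 endothelial markers, and the share of all genes was not counted. The part of these factors in the course of *Nppa*, *Nppb* and *Ankrd1* was not tested. Of 11 factors with a mean of at least 200, 4 passed a coefficient of variation of 20%, against 8.00% of all genes, and *Gata4*, *Gata6*, *Tbx20* and *Hand2* were all highest in mouse 3. *Tbx5*, a factor with higher levels in atria, had 89, 79 and 89.

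Genes with the most similar course over the 3 mice were sought by the same distance, without the 0.5, among 9354 genes that are not members and whose mean reached 200. With 3 points, close matches are many: 708 genes lay within a distance of 0.1 of *Acta1*, 115 of *Nppa*, 97 of *Nppb* and 65 of *Ankrd1*. The nearest named genes were *Rpp30* (252, 318 and 249) to *Nppa*, *Tsen15* (237, 269 and 206) to *Nppb* and *Mycn* (849, 984 and 720) to *Ankrd1*. *Myh7* had 14 genes within 0.1, and among its nearest were *Atad2* (330, 653 and 634) and *Ckap2l* (452, 874 and 873), which are genes known from dividing cells. *Myl4* had 3, namely *Trf*, *Prr15* and *Setbp1*. *Myl7* had none, and the nearest was *Nrg1* (261, 95 and 348) at 1.44. When genes down to a mean of 10 were searched, a limit set after the values had been seen, the nearest to *Myl7* was *Penk* (17, 2 and 13) at 0.20 and that to *Sln* was the unnamed gene 3830403N18Rik (26, 1 and 17) at 0.40, both resting on few reads in mouse 2.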

How the data were processed

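Ribosome-associated RNA from 3 libraries of a single group, titled by mouse number, was analysed. According to the methods, the authors trimmed single-end reads of 72 bases with Trimmomatic 0.39, aligned them with STAR 2.7.11a to mm39 (Ensembl release 109), removed duplicates with Picard 3.1.1 and reads that were multi-mapping, ribosomal or mitochondrial, counted exonic reads on the correct strand with featureCounts 2.0.4, and normalized with DESeq2 1.36.0. The deposited values are a score, normalized counts that the authors rounded to whole numbers, so tests for raw counts were not applied. Removing duplicates limits short abundant transcripts most, and multi-mapping reads are lost from near-identical genes.

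Levels are the mean and SD over mice. The worth of 1 read (0.977, 1.06 and 0.961 normalized counts) was estimated from gaps and doublings among the rounded values. On simulated tables this failed for steps with few gaps, so an estimate was used only if its log likelihood led that of other steps by at least 20, a limit set after the estimates were known. The leads were 31.7, 301 and 63.4. Levels of different genes were compared per base of the Ensembl canonical transcript (GENCODE annotation of GRCm39, in which 99.4% of genes were found), with 0.5 added before division, by an exact sign-flip test of the log2 ratios within mice. Windows of 72 bases were searched for exact copies in the genome and in all transcripts. Promoters came from RefSeq. The 8 genes, the gene lists and the pairs were chosen with earlier results of these data known. The genes named are the 8 members, their partners, genes of the lists, chromosomal neighbours and, for each member with a mean of at least 50, the 3 genes nearest in pattern; some genes under this rule are not reported here. Alternatives were other scalings, medians, exonic or no length, a pseudocount of 5, other limits and leaving out each mouse. Python 3.11.15, numpy 2.4.6, pandas 2.3.3, scipy 1.17.1 and matplotlib 3.10.9 were used.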

Additional observations from a re-analysis of the deposited data

How the results depend on the processing

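The number of genes with a coefficient of variation over 20% was 749 among genes with a mean of at least 200, 1785 from a mean of 50 and 6305 with no minimum, and ranged from 455 (without mouse 1) to 921 when a mouse was left out. Taken against the sum of the adult cardiomyocyte genes instead of their median, the log2 levels were -6.33 for *Nppa*, -7.64 for *Nppb*, -8.90 for *Myl7*, -7.42 for *Myl4*, -11.47 for *Sln*, -5.62 for *Myh7*, -6.10 for *Acta1* and -4.88 for *Ankrd1*, as a sum exceeds a median by construction. The ranks of the genes and the order of their levels per base depended on the length used, as given beside them. No ratio changed direction under another length, a pseudocount of 5 or without a mouse. Leaving out a mouse moved the mean of *Myl7* between 59.5 and 121.5 and that of *Sln* between 12.5 and 25.5, both highest without mouse 2, and the log2 ratio of *Myl7* to *Myl4* between -1.38 and -0.07. No paired analysis was possible because all 3 libraries belong to a single group. With 3 mice and about 1 read of *Sln* in mouse 2, depth limits the size of that difference.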
